A study of Homo sapiens with 27 samples.

Results

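The 10 genes described here encode parts of the NF-kB system: the transcription factor subunits NFKB1, NFKB2, RELA and RELB, the inhibitors NFKBIA and NFKBIE, the nuclear regulators NFKBIZ and BCL3, and the feedback genes TNFAIP3 and BIRC3. They were chosen by gene symbol from a table of 36536 features of MCF10A cells, a non-tumorigenic line of human breast epithelium. Each had exactly 1 row in the table and passed the filter on low counts. The cells had been grown with 20 ng/ml epidermal growth factor (EGF) and then held for 18 h without growth factors. A first group of libraries, T0, was collected at 0 h with no addition. The other 8 groups were collected after 24 h with phosphate-buffered saline (PBS), with EGF, with oncostatin M (OSM, a cytokine related to interleukin-6), with transforming growth factor beta (TGFB), with each pair of these ligands, or with all 3, each ligand at 10 ng/ml. All 9 groups had 3 libraries and came from the same cell line after the same first 18 h without growth factors. The PBS group then had 24 h more without an added ligand, and T0 did not. The labels do not say that the libraries came from separate cultures, so the p-values measure the spread between these libraries, which may be technical. In bulk RNA, a smaller number of cells expressing a gene cannot be told apart from less RNA of that gene per cell.

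NF-kB proteins are dimers that are held inactive in the cytoplasm by IkappaB proteins. In the canonical pathway, a kinase complex marks NFKBIA (IkappaB alpha) and NFKBIE (IkappaB epsilon) for destruction, and dimers containing RELA enter the nucleus. In the noncanonical pathway, the NFKB2 precursor is processed to its mature form, which pairs with RELB. Many genes of the system are themselves NF-kB targets, so that NFKBIA, TNFAIP3 (A20, a ubiquitin-editing enzyme) and BIRC3 (cIAP2, a ubiquitin ligase) act as feedback on the signal that raised them. In epithelium the pathway is known for inflammatory and survival responses.

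Library totals were 30.1 to 52.9 M counts (M for mega) with a median of 39.5 M, and the lowest count of any of the 10 genes in any library was 163, for NFKBIE. The unit of level is CPM, a gene's counts for each 1 M of the library, with library sizes scaled by edgeR's TMM method, as mean ± SD over 3 libraries. All 8 epithelial marker genes examined were over 1 CPM. Of the leukocyte markers, CD68 and CD14 exceeded 1 CPM as group means, while PTPRC, the defining leukocyte gene, reached at most 0.133 CPM as a group mean. The 5 leukocyte markers summed to 54.4 to 61.3 CPM in PBS and to 96.3 to 119 CPM with OSM. Of the 3 endothelial markers, VWF and PECAM1 had highest group means of 2.56 and 1.66 CPM, and CDH5 was at 0 in 18 of 27 libraries. Of the 5 fibroblast markers, only COL1A1 exceeded 1 CPM as a group mean. The fibroblast sum was 36.8 to 43.3 CPM in PBS and 105.9 to 118 CPM with TGFB. The part of these markers in the results below was not tested.

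The promoter sequences are shown because several of these genes carry matches to the motif of the factor they encode or restrain. RefSeq promoter windows on GRCh38.p14, spanning 250 bases before to 50 after a start site, were found for 8 of the 10 genes, with none for RELB and NFKBIE. A match to the kappaB motif, the consensus bound by NF-kB dimers, was present on at least 1 strand in 9 of their 13 windows, and in 7 of the 8 genes. Of all 35116 promoter windows of this length, 5.91% held a match. A window of RELA held the interferon-gamma activated sequence TTCNNNGAA bound by STAT factors, which 7.66% of all windows held. The AP-1 motif TGANTCA was in 0 of the 13 windows and in 7.71% of all windows. Both strands were searched, and overlapping matches were counted separately. The stretches before the annotated gene starts that hold a kappaB match are given 5′ to 3′ on the gene's strand, with the match in capitals. They lie at chr4:102501109-102501329 on the plus strand for NFKB1, chr14:35404750-35404999 on the minus strand for NFKBIA, chr3:101827740-101827989 on the plus strand for NFKBIZ, chr6:137867009-137867213 on the plus strand for TNFAIP3 and chr11:102317234-102317483 on the plus strand for BIRC3.
NFKB1: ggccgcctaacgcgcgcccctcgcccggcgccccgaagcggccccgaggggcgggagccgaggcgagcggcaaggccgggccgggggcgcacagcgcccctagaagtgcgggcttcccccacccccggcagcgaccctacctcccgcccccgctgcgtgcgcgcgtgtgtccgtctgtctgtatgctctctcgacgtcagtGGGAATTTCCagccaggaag
NFKBIA: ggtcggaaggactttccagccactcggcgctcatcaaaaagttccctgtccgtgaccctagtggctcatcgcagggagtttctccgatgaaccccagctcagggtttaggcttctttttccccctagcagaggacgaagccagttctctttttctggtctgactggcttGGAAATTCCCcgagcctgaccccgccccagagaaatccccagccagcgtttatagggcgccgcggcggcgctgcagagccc
NFKBIZ: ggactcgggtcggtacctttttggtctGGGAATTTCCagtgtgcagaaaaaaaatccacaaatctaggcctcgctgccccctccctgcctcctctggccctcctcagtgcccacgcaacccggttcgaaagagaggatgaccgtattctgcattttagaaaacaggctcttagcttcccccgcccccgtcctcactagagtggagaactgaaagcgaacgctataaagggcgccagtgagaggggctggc
TNFAIP3: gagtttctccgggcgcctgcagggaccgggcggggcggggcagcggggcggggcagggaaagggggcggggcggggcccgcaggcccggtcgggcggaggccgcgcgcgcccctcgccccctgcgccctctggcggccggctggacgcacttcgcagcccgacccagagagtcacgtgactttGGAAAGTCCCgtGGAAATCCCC
BIRC3: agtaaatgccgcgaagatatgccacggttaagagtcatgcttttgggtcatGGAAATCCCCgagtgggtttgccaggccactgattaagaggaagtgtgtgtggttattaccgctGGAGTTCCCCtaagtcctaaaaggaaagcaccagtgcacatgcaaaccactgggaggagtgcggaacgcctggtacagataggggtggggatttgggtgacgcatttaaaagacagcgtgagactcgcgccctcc
NFKB1 and NFKBIZ carried the same match, GGGAATTTCC, and TNFAIP3 and BIRC3 shared GGAAATCCCC. TNFAIP3 and BIRC3 each held a pair of matches in these stretches. The matches of NFKB2 and BCL3, and another match of NFKBIZ (GGGGTTTCCC), lay in windows inside the annotated gene span. In NFKB2 they included GGGACTTTCC and the overlapping pair GGGAATTCCC and GGAATTCCCC, and in BCL3 the match was GGGAAGTCCC. A match is a run of letters and not a measured binding site.

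The 4 subunit genes did not move as a block. NFKB1, which encodes the p105 precursor of p50, rose with OSM and with EGF. NFKB2 and RELB, the noncanonical partners, rose when TGFB was combined with another ligand and not with TGFB alone. RELA, the main activating subunit, rose with OSM and with TGFB and was highest in the 3 groups that combined TGFB with another ligand. The plot of levels by library shows all 10 genes in the 9 groups.

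**Figure D1:**
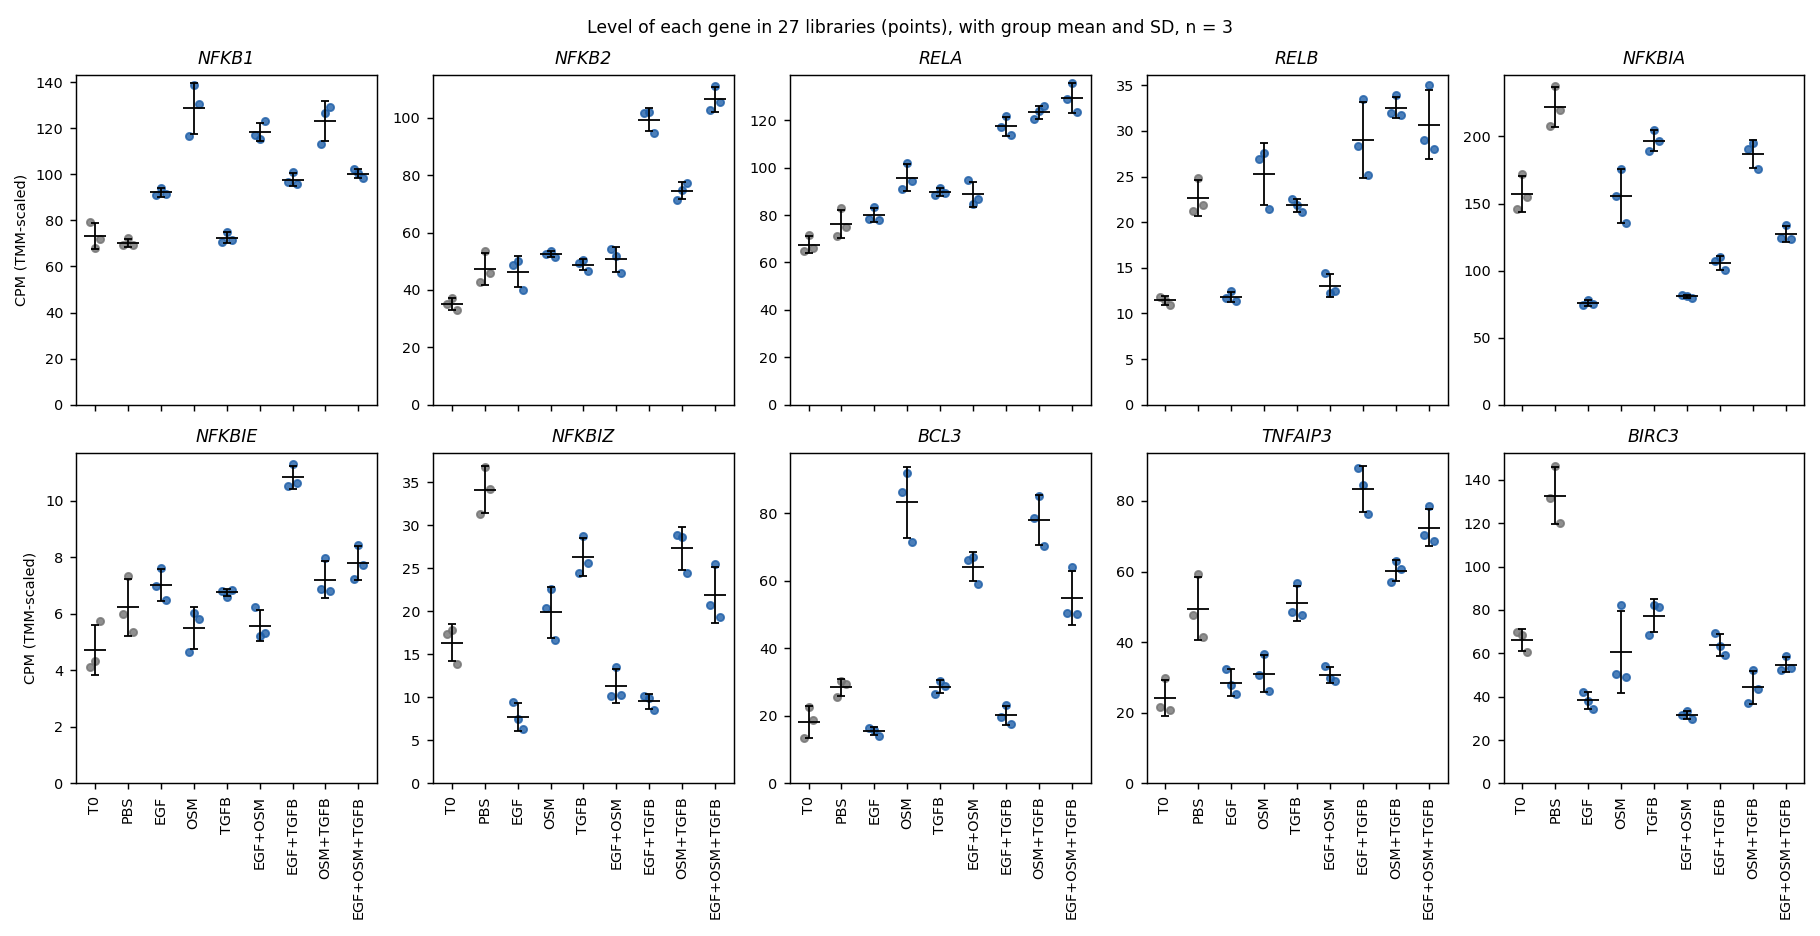
Level of each gene in CPM (vertical axis, TMM-scaled, from 0) in the 9 groups (horizontal axis). Points are the 27 libraries, horizontal bars are group means and error bars are SDs over 3 libraries, with the T0 and PBS controls in grey. BCL3 libraries lie between 50 and 91.9 CPM in the 4 groups with OSM and at or below 30.4 CPM in the other 5.

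NFKB1 (chromosome 4, 102501330 to 102617302, plus strand, 24 exons in its canonical transcript on GRCh38) was at 69.1, 72.2 and 69.1 CPM in the PBS libraries. With OSM it was at 116.8, 138.5 and 130.7 CPM, and with EGF at 90.9, 94.2 and 91.3 CPM. The 3 groups did not overlap. The log2 fold change was 0.88 ± 0.06 (SE, adjusted p = 1.7e-12) with OSM and 0.39 ± 0.06 (adjusted p = 1.56e-06) with EGF. TGFB gave 70.6, 75.1 and 71.5 CPM, which overlapped PBS (log2 change 0.05 ± 0.06, adjusted p = 0.603). In order, the means were highest with OSM (128.7 ± 11 CPM), OSM+TGFB (123 ± 8.59) and EGF+OSM (118.4 ± 4.04), whose libraries overlapped. They were followed by all 3 ligands (100.3 ± 2.09) and EGF+TGFB (97.7 ± 2.86), which overlapped each other, and then EGF (92.1 ± 1.82). T0 (73.1 ± 5.65), TGFB (72.4 ± 2.36) and PBS (70.2 ± 1.78) were lowest and overlapped.

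NFKB2 (chromosome 10, 102394110 to 102402524, plus strand) was at 42.6, 53.4 and 45.9 CPM in PBS. It was at 48.7, 50 and 40.1 CPM with EGF and at 49.3, 50.4 and 46.6 CPM with TGFB. Both overlapped PBS, with log2 changes of -0.03 ± 0.08 (adjusted p = 0.715) and 0.04 ± 0.08 (adjusted p = 0.718). With EGF and TGFB together the libraries were at 101.6, 101.9 and 94.7 CPM, above every library of the 3 single ligands and of PBS. The log2 change of the pair was 1.07 ± 0.08 (adjusted p = 3.07e-12). OSM+TGFB gave 71.4, 74.9 and 77.4 CPM (log2 change 0.65 ± 0.08), and all 3 ligands gave 102.7, 111.1 and 105.4 CPM (1.17 ± 0.08), the highest mean of the 9 groups. EGF+OSM (50.7 ± 4.32 CPM) and OSM (52.4 ± 1.11 CPM) overlapped PBS. The OSM change was not called (0.15 ± 0.08, adjusted p = 0.104), but without PBS replicate 2 it was 0.24 with an adjusted p of 0.0106. NFKB2 was lowest at T0 (35.1 ± 2.09 CPM).

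RELB (chromosome 19, 45001461 to 45038192, plus strand) was at 21.2, 24.9 and 21.8 CPM in PBS and at 11.7, 12.4 and 11.4 CPM with EGF, with no overlap. EGF lowered it by a log2 change of -0.94 ± 0.10 (adjusted p = 9.48e-09). TGFB alone gave 22.6, 21.9 and 21.1 CPM, which overlapped PBS (log2 change -0.05 ± 0.10, adjusted p = 0.735). With both, the libraries were at 28.4, 33.5 and 25.2 CPM, each higher than any PBS library, and the log2 change was 0.36 ± 0.10 (adjusted p = 0.0021). RELB was also higher than PBS with OSM+TGFB (32, 33.9 and 31.8 CPM, log2 change 0.52 ± 0.10) and with all 3 ligands (29, 35 and 28 CPM, 0.43 ± 0.10). The 3 groups with TGFB and another ligand overlapped one another. At the low end EGF overlapped both EGF+OSM (13.1 ± 1.22 CPM) and T0 (11.4 ± 0.45 CPM), which did not overlap each other. OSM alone (26.9, 27.6 and 21.4 CPM) was not called (0.16 ± 0.10, adjusted p = 0.167). Without OSM replicate 3 its change was 0.27 with an adjusted p of 0.0246.

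RELA (chromosome 11, 65653599 to 65663090, minus strand) ranged from 67.5 ± 3.54 CPM at T0 to 129.3 ± 6.18 CPM with all 3 ligands. It was at 71.2, 82.8 and 74.9 CPM in PBS. TGFB (88.5, 91.6 and 89.2 CPM, log2 change 0.23 ± 0.06, adjusted p = 0.00207) and OSM (90.8, 102 and 94.4 CPM, 0.33 ± 0.06, adjusted p = 1.97e-05) raised it without overlap. EGF did not pass the test (78.1, 83.2 and 78.1 CPM, 0.07 ± 0.06, adjusted p = 0.312). The 3 highest groups were those that combined TGFB with another ligand, at 113.7 to 135.7 CPM, and none of their libraries overlapped any other group.

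NFKBIA, the inhibitor whose resynthesis ends a canonical response, was the most abundant of the 10 per length, at 142.4 ± 9.65 CPM per kb of canonical transcript in PBS. RELA was at 30.3 ± 2.37 and NFKBIE at 2.66 ± 0.431 CPM per kb on the same scale. NFKBIA lies on chromosome 14, 35401079 to 35404749, on the minus strand. Its PBS libraries were at 208.1, 238 and 220 CPM and its EGF libraries at 74.2, 78.1 and 75.3 CPM. The EGF libraries were all below the lowest PBS library, with a log2 change of -1.55 ± 0.07 (adjusted p = 1.92e-15). OSM lowered it less, to 155.3, 175.9 and 135.3 CPM (-0.51 ± 0.07, adjusted p = 8.38e-07). TGFB gave 189.2, 205.1 and 196.4 CPM, just under the lowest PBS library. That change was not called (-0.17 ± 0.07, adjusted p = 0.0635). It was called in the fit without PBS replicate 1 (-0.22, adjusted p = 0.0365) and in those without EGF+TGFB replicate 3 (-0.19, 0.0307), OSM replicate 2 (-0.17, 0.0339) or OSM replicate 3 (-0.17, 0.0286). It was called as well with DESeq2 (-0.18, adjusted p = 0.0467), RLE size factors (-0.18, 0.0475), upper-quartile scaling (-0.21, 0.0231) and no filter (-0.19, 0.0439). The 4 groups with EGF held the 4 lowest means, in the order EGF (75.9 ± 2.02 CPM), EGF+OSM (80.7 ± 1.24), EGF+TGFB (105.9 ± 5.23) and all 3 ligands (127.3 ± 6.03), with no overlap between neighbours. EGF+OSM was not called different from EGF (0.09, adjusted p = 0.381).

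NFKBIE was the least abundant in PBS, and its groups other than EGF+TGFB overlapped in the sequence of their means. Its PBS libraries were at 6, 7.33 and 5.35 CPM. None of the single ligands was called: the log2 changes were 0.17 ± 0.13 with EGF (adjusted p = 0.226), -0.18 ± 0.13 with OSM (adjusted p = 0.232) and 0.11 ± 0.13 with TGFB (adjusted p = 0.535). Without PBS replicate 2 the EGF change was 0.31 with an adjusted p of 0.0452. EGF+TGFB stood apart from all other groups, at 10.5, 11.3 and 10.6 CPM, and its log2 change was 0.79 ± 0.13 (adjusted p = 3.08e-06). All 3 ligands gave 7.21, 8.43 and 7.74 CPM, which overlapped PBS (0.32 ± 0.13, adjusted p = 0.0279). That call was lost without PBS replicate 1 (0.29, adjusted p = 0.077), PBS replicate 3 (0.22, 0.156), or replicate 2 (0.26, 0.107) or 3 (0.32, 0.0513) of the group given all 3 ligands. It was also lost with DESeq2 (0.30, adjusted p = 0.0507) and upper-quartile scaling (0.22, 0.109).

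The nuclear IkappaB relatives NFKBIZ and BCL3, which bind NF-kB dimers on DNA and can activate transcription, differed in their response to OSM. BCL3 (chromosome 19, 44747705 to 44760044, plus strand), which is also a known STAT3 target, was at 25.5, 30.3 and 29.6 CPM in PBS. It was at 86.2, 91.9 and 71.6 CPM with OSM, well above PBS. The log2 change was 1.55 ± 0.14, a 2.93-fold rise (adjusted p = 4.03e-09). EGF lowered BCL3 to 16.5, 15.8 and 14.2 CPM (-0.87 ± 0.15, adjusted p = 2.15e-05), and TGFB left it at 26.5, 30.4 and 28.8 CPM (0.01 ± 0.15, adjusted p = 0.979). In the combinations with OSM it was at 66.2, 67 and 59.1 CPM with EGF, 78.6, 85.1 and 70.4 CPM with TGFB, and 50.5, 64 and 50 CPM with both. The lowest library of any group with OSM was above the highest library of any group without it.

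NFKBIZ (IkappaB zeta, chromosome 3, 101827991 to 101861022, plus strand) was highest in PBS, at 31.3, 36.8 and 34.1 CPM, above every library of every other group. It was lowest with EGF, at 9.48, 7.46 and 6.27 CPM, the largest fall among the 10 genes with a single ligand (-2.14 ± 0.15, adjusted p = 6.05e-12). OSM gave 20.4, 22.5 and 16.7 CPM (-0.78 ± 0.14, adjusted p = 3.29e-05), with no library in the PBS range. TGFB gave 24.5, 28.7 and 25.6 CPM (-0.37 ± 0.14, adjusted p = 0.0354). This last call was lost without TGFB replicate 1 (-0.33, adjusted p = 0.126), TGFB replicate 3 (-0.36, 0.0913), PBS replicate 2 (-0.32, 0.129) or PBS replicate 3 (-0.37, 0.0754), and with no filter (-0.40, 0.0627). OSM+TGFB was at 28.9, 28.6 and 24.5 CPM, below PBS by the test (-0.32 ± 0.14, adjusted p = 0.0441), a call lost in 10 of the 27 fits that left out a library, among them those without OSM+TGFB replicate 3 (-0.25, adjusted p = 0.172) and PBS replicate 2 (-0.26, 0.149), and also with no filter (-0.34, 0.0725) or rows as deposited (-0.32, 0.0513). EGF+OSM (11.3 ± 1.94 CPM), EGF+TGFB (9.52 ± 0.832) and EGF formed the low end and overlapped in sequence, while all 3 ligands reached 21.9 ± 3.28 CPM.

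The feedback genes TNFAIP3 and BIRC3 both fell with EGF and with OSM. TNFAIP3 (chromosome 6, 137867214 to 137883314, plus strand) was at 47.7, 59.2 and 41.5 CPM in PBS, at 32.5, 28 and 25.2 CPM with EGF and at 30.7, 36.6 and 26.1 CPM with OSM. Neither ligand's libraries overlapped PBS, with log2 changes of -0.79 ± 0.14 (adjusted p = 3.35e-05) and -0.67 ± 0.14 (adjusted p = 0.000304). TGFB gave 48.5, 56.7 and 47.7 CPM, which overlapped PBS (0.04 ± 0.14, adjusted p = 0.854). With EGF and TGFB together it was at 89.2, 84.6 and 76.2 CPM, above all libraries of PBS and of either ligand alone (0.75 ± 0.14 against PBS, adjusted p = 4.59e-05). With all 3 ligands it was at 70.3, 78.4 and 68.6 CPM, again above every PBS library (0.55 ± 0.14, adjusted p = 0.00127). OSM+TGFB (57, 62.9 and 60.8 CPM) overlapped PBS and was not called (0.28 ± 0.14, adjusted p = 0.0808). Without PBS replicate 2 that change was 0.43 (adjusted p = 0.0125), and without T0 replicate 2 it was 0.28 (adjusted p = 0.0455).

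BIRC3 (chromosome 11, 102317484 to 102339403, plus strand) was highest in PBS, at 131.5, 146.4 and 120 CPM, and no other library of the series reached 83 CPM. EGF gave 42.2, 38.2 and 34.4 CPM (-1.79 ± 0.16, adjusted p = 1.34e-09). OSM gave 50.3, 82.2 and 48.9 CPM (-1.13 ± 0.15, adjusted p = 1.46e-06), with replicate 2 apart from the others. TGFB gave 68.5, 82.1 and 81.2 CPM (-0.78 ± 0.15, adjusted p = 0.000326), so that BIRC3 was the gene of the 10 with the largest change to TGFB alone. EGF+OSM had the lowest mean, at 31.5, 33.5 and 29.6 CPM. These were under every EGF library, but the pair was not called different from EGF (-0.28, adjusted p = 0.188). EGF+TGFB was at 69.2, 63.5 and 59.2 CPM, above every EGF library and overlapping TGFB, from which it was not called different (-0.27, adjusted p = 0.12). BIRC3 was thus below PBS in all 7 treated groups and at T0.

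Against PBS, EGF changed 7 of the 10 genes, NFKB1 upward and RELB, NFKBIA, NFKBIZ, BCL3, TNFAIP3 and BIRC3 downward. Of all 15575 features tested, 73.5% were called with EGF, 34.9% higher and 38.6% lower, so the share of the 10 that was called was near that of all features. Their median log2 change was -0.83, beside -0.07 over all features. OSM changed 7 of 10, NFKB1, RELA and BCL3 upward and NFKBIA, NFKBIZ, TNFAIP3 and BIRC3 downward (all features 63.4% called, 33.5% higher and 29.8% lower). TGFB changed 3 of 10, with RELA higher and NFKBIZ and BIRC3 lower (all features 35.6%, 19.9% higher and 15.8% lower). For both OSM and TGFB the count was close to the background, and the median change of the 10 was -0.02 and 0.02.

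Each combination moved at least 8 of the 10 genes, where 66% to 77.2% of all features were called. For EGF+OSM the count was close to that share. EGF+OSM changed 8 (3 higher, 5 lower) where 77.2% of all features were called, 37.6% higher and 39.6% lower. EGF+TGFB changed all 10 (6 higher, 4 lower) where 73.7% of all features were called, 36.2% higher and 37.5% lower. NFKB1, NFKB2, RELA, RELB, NFKBIE and TNFAIP3 made up the 6. OSM+TGFB changed 8 (5 higher, 3 lower), where 66% of all features were called, 34.2% higher and 31.8% lower. With all 3 ligands all 10 changed (9 with DESeq2 or upper-quartile scaling, without NFKBIE), 7 of them higher and 3 lower, where 74.4% of all features were called, 37.7% higher and 36.7% lower. NFKBIA, NFKBIZ and BIRC3 were the genes that fell. Median log2 changes of the 10 were -0.43, 0.42, 0.40 and 0.47 in these combinations, beside medians of all features between -0.05 and 0.00. These comparisons share the PBS libraries. The map of fold changes gives every value.

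**Figure D2:**
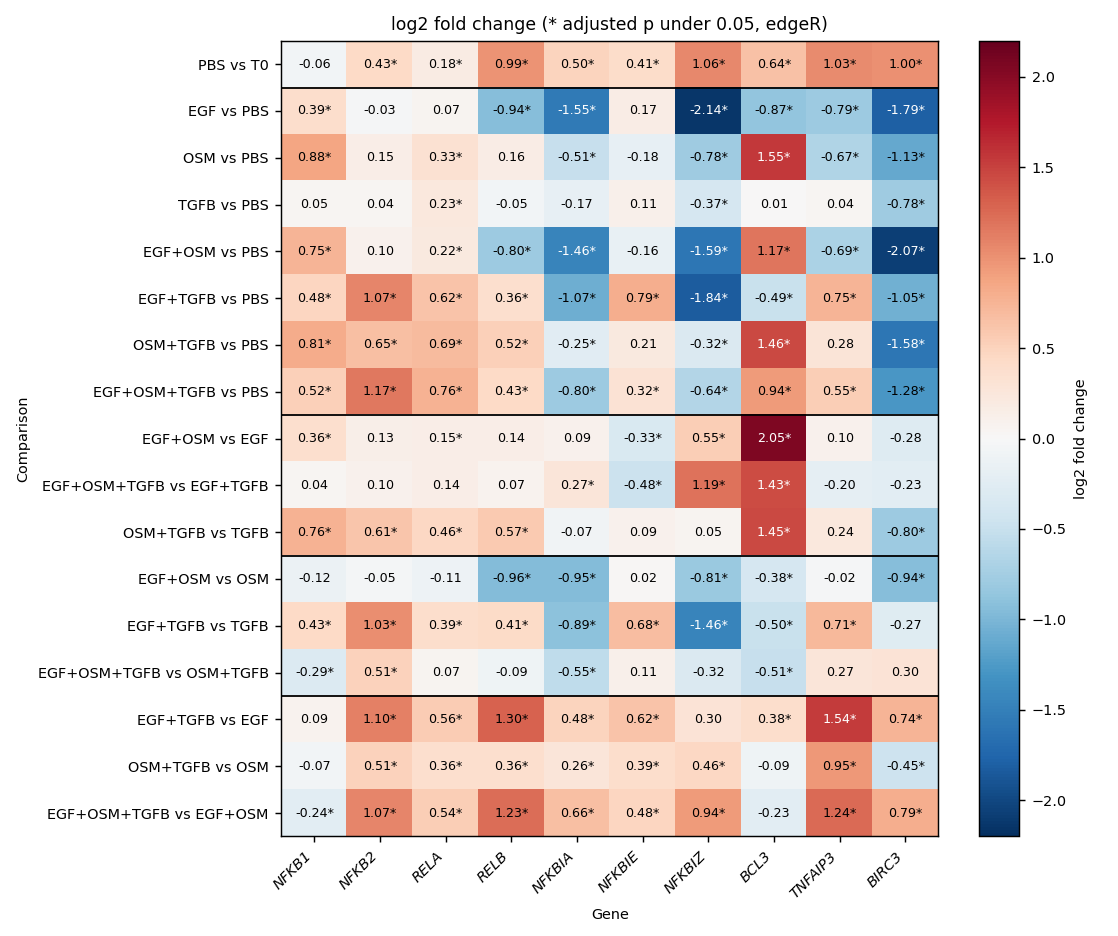
Log2 fold change (colour and printed value) of each gene (columns) in 17 comparisons (rows), from edgeR's fit over 27 libraries, with asterisks at adjusted p under 0.05. Rows are grouped as PBS against T0, treatments against PBS, OSM added, EGF added and TGFB added, and the BCL3 column is positive in each of the 3 comparisons where OSM was added.

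The 24 h in PBS had themselves raised most of these genes. Against T0, 9 of the 10 were higher in PBS and 0 were lower, where 35.1% of all features were called, 16.2% higher and 18.9% lower. By DESeq2 and at an unadjusted p under 0.05, 0 were lower as well. The median log2 change of the 10 was 0.57, beside -0.01 over all features. NFKBIZ rose from 17.4, 17.8 and 13.9 CPM (1.06 ± 0.14, adjusted p = 2.45e-06), TNFAIP3 from 21.7, 30 and 20.8 CPM (1.03 ± 0.14, adjusted p = 7.61e-06), BIRC3 from 69.9, 68.3 and 60.4 CPM (1.00 ± 0.15, adjusted p = 2.67e-05) and RELB from 11.9, 11.5 and 11 CPM (0.99 ± 0.10, adjusted p = 5.28e-08). In all 4 the T0 libraries lay below every PBS library. NFKB1 was the exception, at 79.2, 68 and 72 CPM at T0 (-0.06 ± 0.06, adjusted p = 0.48). The RELA and NFKBIE calls had overlapping libraries and depended on single libraries. RELA (0.18 ± 0.06, adjusted p = 0.0183) was lost without T0 replicate 1 (0.15, adjusted p = 0.0819), T0 replicate 3 (0.16, 0.0646) or PBS replicate 2 (0.11, 0.162). NFKBIE (0.41 ± 0.13, adjusted p = 0.0157) was lost without T0 replicate 1 (0.32, 0.0907), T0 replicate 2 (0.34, 0.076) or PBS replicate 2 (0.27, 0.146). RELB with EGF (11.4 to 12.4 CPM) overlapped its T0 libraries, as did TNFAIP3 and BCL3 with EGF. With OSM, the libraries of NFKBIA, NFKBIZ, TNFAIP3 and BIRC3, all below PBS, overlapped those of T0 as well. So did BIRC3 with TGFB. NFKBIA, NFKBIZ and BIRC3 with EGF lay below every T0 library of the same gene, and NFKBIZ with TGFB lay above. No ligand group was tested against T0, so a fall against PBS is not a measured fall from the starting level.

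Adding OSM to cells given another ligand raised BCL3 each time. BCL3 rose by 2.05 ± 0.15 (log2, adjusted p = 4.46e-10) on top of EGF, by 1.45 ± 0.14 (adjusted p = 1.8e-08) on top of TGFB and by 1.43 ± 0.15 (adjusted p = 1.43e-07) on top of EGF+TGFB, with no overlap of libraries. NFKBIZ, which OSM lowered from PBS, was instead raised by OSM on top of EGF+TGFB, from 10.1, 9.87 and 8.57 CPM to 20.7, 25.5 and 19.3 CPM (1.19 ± 0.15, adjusted p = 1.34e-06). On top of EGF it rose from 7.74 ± 1.62 to 11.3 ± 1.94 CPM (0.55 ± 0.15, adjusted p = 0.00722), which was lost without EGF+OSM replicate 2 (0.39, adjusted p = 0.0671). In all, OSM changed 5 of 10 genes on top of EGF (4 higher, 1 lower), where 34.9% of all features were called, 17.8% higher and 17.1% lower. OSM changed 6 on top of TGFB (5 higher, 1 lower), where 56.6% were called, 30.1% higher and 26.4% lower. It changed 4 on top of EGF+TGFB (3 higher, 1 lower), where 26.4% were called, 13.6% higher and 12.8% lower. The 5 on top of EGF included RELA and NFKBIE, whose calls were also lost without single libraries: RELA (0.15 ± 0.06, adjusted p = 0.0421) without either of EGF replicates 1 and 3 or EGF+OSM replicates 1 and 3 (0.10 to 0.17, adjusted p = 0.0563 to 0.23), and NFKBIE (-0.33 ± 0.13, adjusted p = 0.0446) in 13 of 27 such fits (up to adjusted p = 0.171, without EGF replicate 2). The RELA call was also lost with DESeq2 (adjusted p = 0.0537), RLE size factors (0.0592), upper-quartile scaling (0.0575) and no filter (0.0718), and the NFKBIE call with no filter (0.0713) and rows as deposited (0.0503). The count itself was 3 without EGF replicate 1, EGF+OSM replicate 2 or EGF+OSM replicate 3. On top of EGF+TGFB, the NFKBIA rise (0.27 ± 0.07, adjusted p = 0.00765) was lost without EGF+TGFB replicate 3 (0.20, adjusted p = 0.0704). NFKBIE fell there from 10.5, 11.3 and 10.6 CPM to 7.21, 8.43 and 7.74 CPM (-0.48 ± 0.13, adjusted p = 0.00512), with no overlap.

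Adding TGFB to cells that had another ligand raised most of the 10 genes. On top of EGF, 8 rose and 0 fell, where 54.6% of all features were called, 27% higher and 27.7% lower. The count of 0 falling is from edgeR, and 0 fell at an unadjusted p under 0.05 or by DESeq2. On top of EGF+OSM, 8 rose and NFKB1 fell, where 61.1% of all features were called, 31.6% higher and 29.5% lower. On top of OSM, 7 rose and BIRC3 fell, where 51.6% were called, 26.1% higher and 25.6% lower. TNFAIP3 rose by 1.54 ± 0.14 (log2, adjusted p = 7.86e-09) on EGF, 0.95 ± 0.14 (adjusted p = 8.19e-06) on OSM and 1.24 ± 0.14 (adjusted p = 1.25e-07) on EGF+OSM. RELB rose by 1.30 ± 0.10, 0.36 ± 0.10 and 1.23 ± 0.10, and NFKB2 by 1.10 ± 0.08, 0.51 ± 0.08 and 1.07 ± 0.08, in the same order. In these genes no library with TGFB overlapped the matching group without it. Several smaller calls depended on 1 library. BCL3 on EGF (0.38 ± 0.15, adjusted p = 0.0396) was lost without EGF replicate 2 (0.40, 0.0702) or 3 (0.32, 0.133) or EGF+TGFB replicate 1 (0.41, 0.062) or 2 (0.27, 0.216), and with upper-quartile scaling (0.36, 0.0565) or no filter (0.41, 0.0669). On OSM, NFKBIE (0.39 ± 0.13) was lost without OSM replicate 1 (0.28, 0.096) or OSM+TGFB replicate 2 (0.31, 0.0803), and NFKBIZ (0.46 ± 0.14) without OSM replicate 3 (0.35, 0.0601). BIRC3 on OSM (-0.45 ± 0.16, adjusted p = 0.019, libraries overlapping) was lost without OSM replicate 2, its high library (-0.16, 0.281), or OSM+TGFB replicate 1 (-0.34, 0.109) or 3 (-0.44, 0.0505).

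Adding EGF gave a direction that depended on the partner. On top of OSM, 0 of the 10 rose, by edgeR, by DESeq2 or at an unadjusted p under 0.05, and 5 fell, where 61.7% of all features were called, 29.9% higher and 31.8% lower. The 5 were RELB (-0.96 ± 0.10), NFKBIA (-0.95 ± 0.07), BIRC3 (-0.94 ± 0.16), NFKBIZ (-0.81 ± 0.15) and BCL3 (-0.38 ± 0.14, adjusted p = 0.0226). The BCL3 call was lost without OSM replicate 1 (-0.35, adjusted p = 0.065), OSM replicate 2 (-0.30, 0.107) or EGF+OSM replicate 3 (-0.32, 0.0913), and with no filter (-0.35, 0.0778). On top of TGFB, 6 rose and 3 fell, where 69.4% of all features were called, 33.9% higher and 35.5% lower. NFKB2 rose by 1.03 ± 0.08 (adjusted p = 1.14e-11), TNFAIP3 by 0.71 ± 0.14 (adjusted p = 0.000103) and NFKBIE by 0.68 ± 0.13 (adjusted p = 3.07e-05). NFKBIZ (-1.46 ± 0.15), NFKBIA (-0.89 ± 0.07) and BCL3 (-0.50 ± 0.15, adjusted p = 0.00568) were the 3 that fell, the last lost without EGF+TGFB replicate 3 (-0.37, adjusted p = 0.0551). On top of OSM+TGFB, EGF raised NFKB2 (0.51 ± 0.08) and lowered NFKB1 (-0.29 ± 0.06), NFKBIA (-0.55 ± 0.07) and BCL3 (-0.51 ± 0.14), 4 of 10 where 52.2% of all features were called, 26.3% higher and 25.9% lower. NFKBIA and BCL3 were the genes that EGF lowered in all 4 comparisons, against PBS and on top of OSM, TGFB and OSM+TGFB.

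The design also allows each pair to be set against the sum of its single-ligand log2 changes. A departure is the pair's log2 change minus that sum, and is 0 when the changes add. For EGF+TGFB, 8 of the 10 genes departed upward and 0 downward, where 29.8% of all features were called, 13.3% higher and 16.5% lower. The median departure of the 10 was 0.67, beside -0.02 over all features. BIRC3 departed by 1.52 ± 0.22 (adjusted p = 2.64e-05): its single changes summed to -2.57, and the pair gave -1.05. TNFAIP3 departed by 1.50 ± 0.20 (adjusted p = 8.87e-06), with a sum of -0.75 against a measured 0.75. RELB departed by 1.35 ± 0.14 (adjusted p = 2.17e-07), with a sum of -0.99 against 0.36. NFKB2 departed by 1.06 ± 0.11 (adjusted p = 1.46e-07), from a sum of 0.01. NFKBIE (0.51 ± 0.18, adjusted p = 0.0314) and NFKBIZ (0.68 ± 0.21, adjusted p = 0.0157) were called less firmly. NFKBIE was lost without EGF replicate 1 (0.50, adjusted p = 0.0541), EGF replicate 3 (0.46, 0.0838), TGFB replicate 1 (0.52, 0.052), TGFB replicate 2 (0.49, 0.0638), PBS replicate 2 (0.37, 0.131) or EGF+TGFB replicate 2 (0.47, 0.0762), and NFKBIZ without EGF replicate 3 (0.55, 0.0567). NFKB1 and BCL3 were not called, at 0.04 ± 0.08 (adjusted p = 0.77) and 0.38 ± 0.21 (adjusted p = 0.197).

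**Figure D3:**
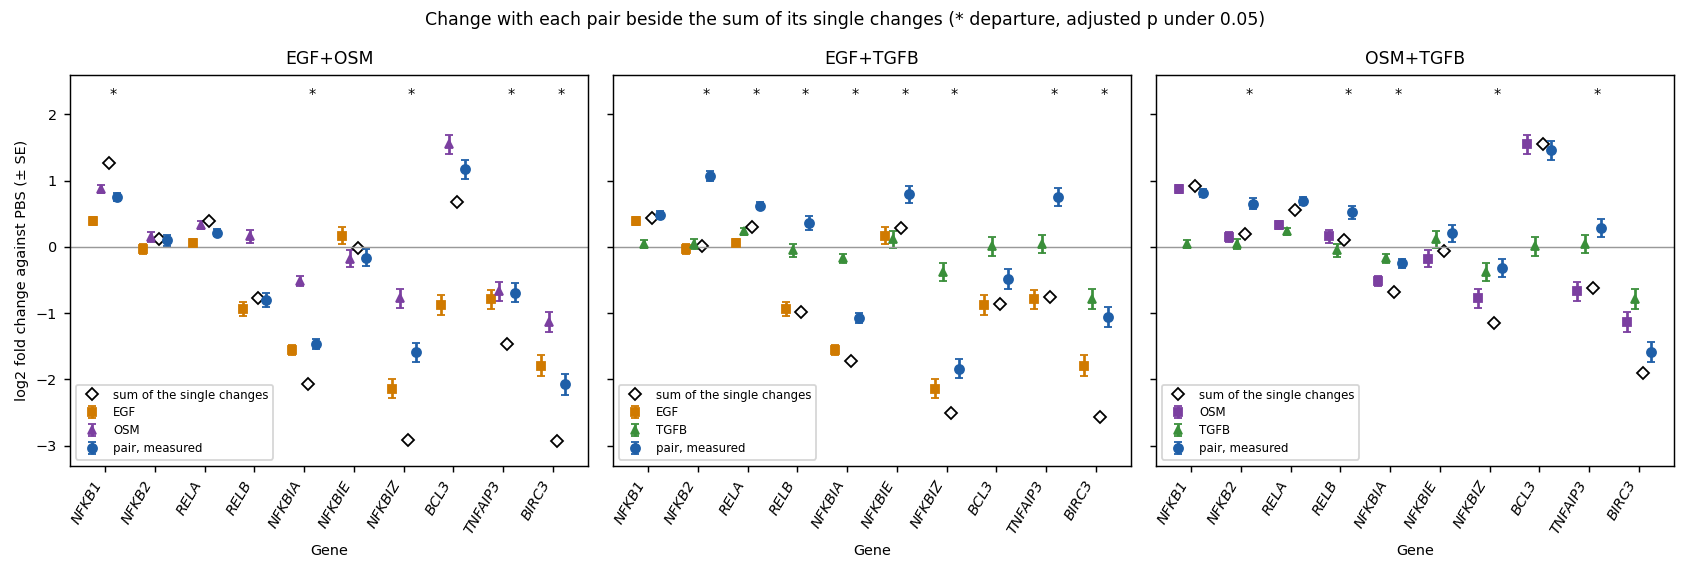
Log2 fold change against PBS (vertical axis) of each gene (horizontal axis) for the single ligands, for the pair as measured and for the sum of the single changes (open diamonds), in a panel for each pair. Error bars are standard errors and asterisks mark departures with adjusted p under 0.05, and in the EGF+TGFB panel the measured NFKB2, RELB and TNFAIP3 lie above 0 while their sums are 0.01, -0.99 and -0.75.

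For OSM+TGFB, 5 genes departed upward and 0 downward, where 23.3% of all features were called, 9.61% higher and 13.7% lower. For both pairs the 0 from edgeR was also 0 at an unadjusted p under 0.05 and by DESeq2. They were TNFAIP3 (0.91 ± 0.20, adjusted p = 0.00203), NFKBIZ (0.83 ± 0.20, adjusted p = 0.00321), NFKB2 (0.46 ± 0.11, adjusted p = 0.003), NFKBIA (0.44 ± 0.10, adjusted p = 0.00262) and RELB (0.41 ± 0.14, adjusted p = 0.0348). The RELB call was lost in 6 fits that left out a library, those without OSM+TGFB replicate 1 (0.43, adjusted p = 0.0508) or 2 (0.38, 0.0802), TGFB replicate 2 (0.41, 0.0605) or 3 (0.39, 0.0745), PBS replicate 2 (0.34, 0.109) or OSM replicate 3 (0.31, 0.115). BIRC3 was not called (0.33 ± 0.22, adjusted p = 0.316), but departed by 0.61 (adjusted p = 0.00701) without OSM replicate 2. For EGF+OSM, 4 genes departed upward and NFKB1 downward, where 38.7% of all features were called, 15.7% higher and 23% lower. NFKBIZ departed by 1.33 ± 0.21 (adjusted p = 1.64e-05), BIRC3 by 0.85 ± 0.22 (adjusted p = 0.00399), TNFAIP3 by 0.77 ± 0.20 (adjusted p = 0.00434) and NFKBIA by 0.60 ± 0.10 (adjusted p = 4.05e-05). For these genes the pair fell by less than the 2 falls added together. NFKB1 departed by -0.51 ± 0.08 (adjusted p = 1.85e-05), rising with the pair by 0.75 where the single rises summed to 1.27. RELB, with -0.02 ± 0.15 (adjusted p = 0.933), was not called.

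Other genes of the pathway were read from 7 lists. Their counts stand beside the shares of all features called. These were 34.9% higher and 38.6% lower with EGF, 33.5% and 29.8% with OSM, and 19.9% and 15.8% with TGFB. Among the remaining Rel and IkappaB proteins, REL (c-Rel, a further activating subunit) fell with EGF from 101.3 ± 9.32 to 32.9 ± 0.458 CPM (-1.62 ± 0.09, adjusted p = 5.74e-14), fell with OSM to 80.1 CPM (-0.34 ± 0.09) and rose with TGFB to 161.9 CPM (0.68 ± 0.09). NFKBIB, a further inhibitor, rose with EGF (0.41 ± 0.09), and NFKBID was not called with any single ligand. Of the 8 kinases and kinase-binding proteins, EGF changed all 8 (3 higher, 5 lower), OSM 5 (2 higher, 3 lower) and TGFB 0. For TGFB, 2 had an unadjusted p under 0.05 in edgeR and 1 was called by DESeq2. The 5 lower with EGF were 3 without EGF replicate 2 or 3. The 2 higher with OSM were 1 without EGF+TGFB replicate 3, PBS replicate 2 or PBS replicate 3, and 1 with DESeq2, RLE size factors, upper-quartile scaling or no filter. The 3 lower with OSM were 5 with RLE size factors or upper-quartile scaling. MAP3K14 (NIK, the kinase of the noncanonical pathway) was the one EGF raised most (0.65 ± 0.09), and TAB2, an adaptor of the kinase TAK1, the one it lowered most (-0.59 ± 0.05). OSM raised MAP3K7 (TAK1) most, by 0.38 ± 0.04, and lowered TAB2 by -0.38 ± 0.05 on the log2 scale.

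Of the 11 adaptors and ubiquitin ligases, 4 rose and 4 fell with EGF, 5 rose and 3 fell with OSM, and 5 rose and 0 fell with TGFB (0 also by DESeq2 and unadjusted). TRAF5, an adaptor of TNF receptor family members, rose most with EGF (1.84 ± 0.12) and OSM (0.93 ± 0.12), and TRAF1 rose most with TGFB, from 0.825 to 2.56 CPM (1.64 ± 0.27). RIPK1, a kinase adaptor of TNF receptor signalling, was the called gene with the smallest change with TGFB (0.13 ± 0.05, adjusted p = 0.0375). That call was lost without any single one of TGFB replicates 1 and 2, PBS replicates 2 and 3 and EGF+TGFB replicate 3 (0.10 to 0.13, adjusted p = 0.0594 to 0.18). It was also lost with DESeq2 (adjusted p = 0.0572), RLE size factors (0.0628), upper-quartile scaling (0.11) or no filter (0.217). Without PBS replicate 3, 3 adaptors rose with TGFB. TRAF6 fell with EGF by -0.50 ± 0.07 and IRAK1 with OSM by -0.46 ± 0.05. Of 10 receptors, 9 were tested. TNFRSF12A, the receptor for TWEAK and an activator of the noncanonical pathway, rose from 22.9 CPM in PBS to 251.2 CPM with EGF (3.45 ± 0.12), 116.9 CPM with OSM (2.35 ± 0.12) and 109.4 CPM with TGFB (2.26 ± 0.12). IL1R1, the interleukin-1 receptor, fell from 108.1 to 13.7 CPM with EGF (-2.98 ± 0.08, adjusted p = 8.24e-20) and to 71.5 CPM with TGFB (-0.60 ± 0.07). With OSM, 5 receptors rose and 0 fell (0 also by DESeq2 and unadjusted), from LTBR, the lymphotoxin beta receptor (0.52 ± 0.04), to TNFRSF1B at a low level (0.323 to 2.02 CPM, 2.63 ± 0.49). EGF raised 4 receptors and lowered 3, and TGFB raised 3 and lowered 1 (2 lower without PBS replicate 3).

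Of the ligand transcripts named here, IL1A was at 19.6 CPM in PBS and the others were at or below 8.33 CPM. Of 9 ligands, 7 were tested, with 2 higher and 3 lower with EGF, 1 higher and 2 lower with OSM, and 2 of each with TGFB. The 2 higher with EGF were 1 without EGF replicate 2 or 3 or PBS replicate 1 or 2, and the 2 lower with OSM were 1 without OSM replicate 2 or 3 or PBS replicate 2 or 3. With TGFB the 2 higher were 1 without PBS replicate 1, 2 or 3 or TGFB replicate 1 and 0 without TGFB replicate 2, and the 2 lower were 1 without PBS replicate 3 or TGFB replicate 1 or 2. IL1A rose from 19.6 to 48.6 CPM with EGF (1.31 ± 0.16) and to 33.8 CPM with OSM (0.79 ± 0.16), and TNFSF11 (RANKL) fell from 1.53 to 0.0444 CPM with EGF (-5.02 ± 0.53). IL1B fell with OSM from 8.33 to 5.22 CPM (-0.67 ± 0.25), which was lost without OSM replicate 1 (-0.58, adjusted p = 0.0909), OSM replicate 2 (-0.63, 0.0744) or PBS replicate 3 (-0.47, 0.145). With TGFB, TNF rose from 0.12 to 0.597 CPM (2.30 ± 0.76, adjusted p = 0.0197) and TNFSF11 fell (-1.73 ± 0.38). The TNF call was lost without PBS replicate 1 (2.34, adjusted p = 0.0516), PBS replicate 2 (1.99, 0.087) or TGFB replicate 2 (2.11, 0.0665). The TNF rows include copies on alternate loci, summed here. Of 10 other brakes, 9 were tested, with 4 higher and 3 lower with EGF, 5 and 2 with OSM, and 2 and 1 with TGFB. The 2 higher with TGFB were 1 without PBS replicate 1, PBS replicate 3 or TGFB replicate 2. CYLD, a deubiquitinase that restrains the pathway, was the lowest called gene of this list with each single ligand, falling from 103.3 CPM to 43, 62.9 and 82.4 CPM with EGF, OSM and TGFB. With TGFB the call, the 1 of this list, was lost without TGFB replicate 1 (-0.26, adjusted p = 0.0684). TNIP3, a partner of TNFAIP3, rose most with EGF (1.44 ± 0.19) and OSM (2.79 ± 0.18), and ITCH, a ubiquitin ligase, with TGFB (0.29 ± 0.05).

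**Figure D4:**
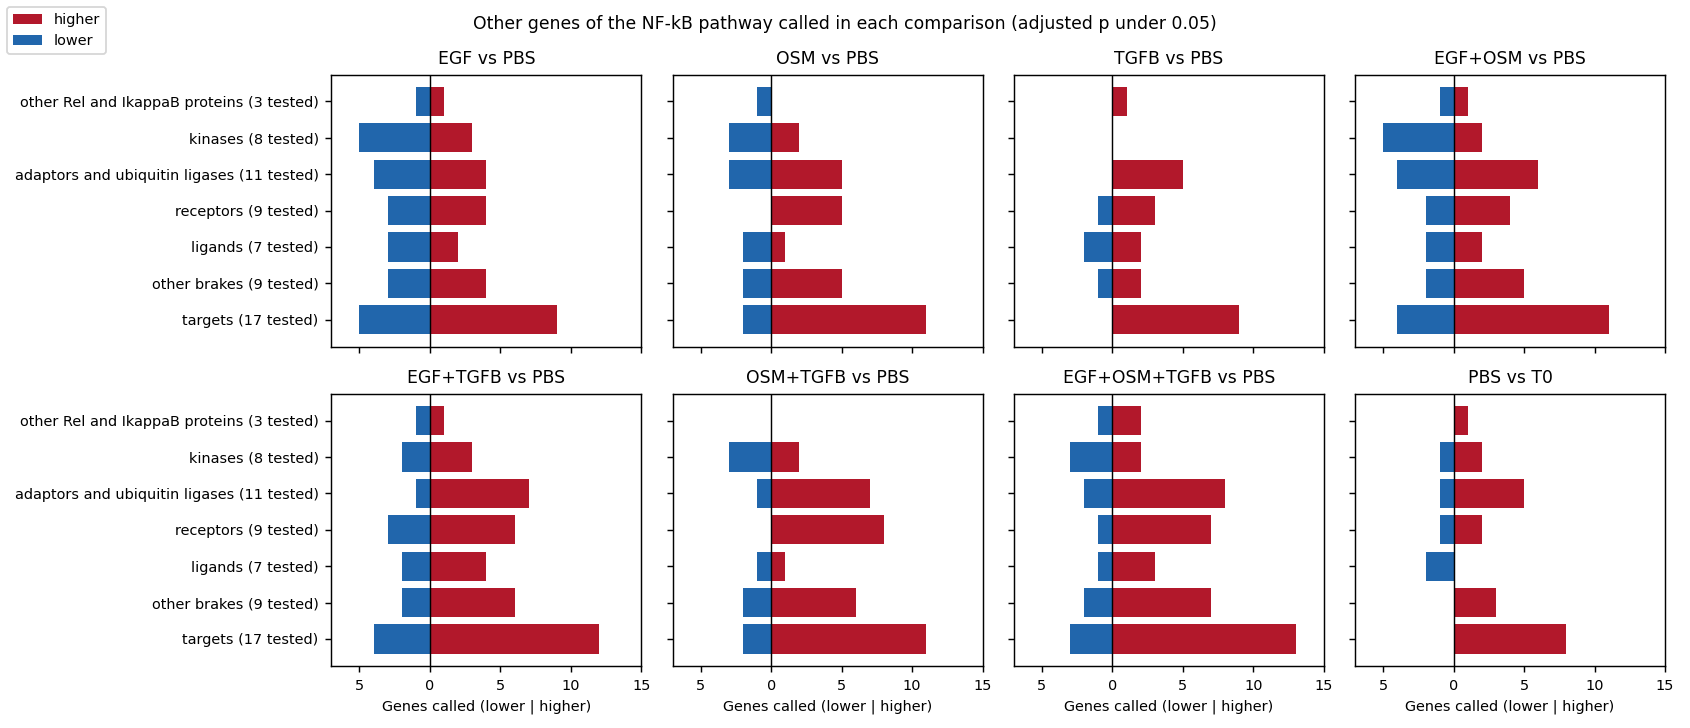
Number of genes of each list (vertical axis, with the number tested) called lower (blue, to the left of 0) or higher (red, to the right) at adjusted p under 0.05, in 8 comparisons. Of 17 tested targets, 9, 11 and 9 were higher with EGF, OSM and TGFB, and 13 with all 3 ligands. Of all features, 34.9%, 33.5%, 19.9% and 37.7% were higher in the same order.

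Of 19 known NF-kB target genes, 17 were tested. With EGF 9 were higher and 5 lower, with OSM 11 and 2, with TGFB 9 and 0, and with all 3 ligands 13 and 3. In the same order, 34.9%, 33.5%, 19.9% and 37.7% of all features were higher and 38.6%, 29.8%, 15.8% and 36.7% lower. For TGFB, 1 target was lower at an unadjusted p under 0.05, 0 by DESeq2, and 1 without TGFB replicate 2. The 2 lower with OSM were 1 without OSM replicate 3 or PBS replicate 2. Their median log2 changes were 1.08 with EGF, 1.04 with OSM, 0.47 with TGFB and 2.30 with all 3 ligands. With CCL2, IL6 and CSF2, which were at or near 0 counts in PBS, held at their bounds, the EGF median was 0.59 and the others did not move. SOD2, a mitochondrial superoxide dismutase, fell with EGF from 931.1 to 137.3 CPM (-2.76 ± 0.21). LCN2, an iron-trafficking protein, fell with OSM from 57.5 to 27.3 CPM (-1.07 ± 0.36), a call lost without OSM replicate 3 (-0.75, adjusted p = 0.085) or PBS replicate 2 (-0.89, 0.0652). CCL2, a chemokine, had the highest fitted change with OSM and reached 0.404 CPM. ICAM1, an adhesion molecule, was the called target with the smallest rise with TGFB, from 16.4 to 22.6 CPM (0.47 ± 0.12). IL6 was at 0 counts in all PBS libraries together, at 6 counts with EGF and at 32 counts with TGFB. Against a floor of 3 counts over the PBS group, its level was at least 11.6-fold higher with TGFB, at least 266.9-fold higher with EGF+TGFB, at least 119-fold higher with OSM+TGFB and at least 606-fold higher with all 3 ligands.

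The genes whose pattern was most like each member were found by Pearson's r over the 9 group means of log2 CPM, among 8715 genes whose means spanned at least 1 log2 unit. These correlations describe shared shape over groups that share libraries and depth, and carry no p. NFKB1 was most like SLC16A1 (r = 0.98), BATF3 and CISH (both r = 0.97). SLC16A1, a lactate transporter, was at 131.4 CPM in PBS, 242 CPM with EGF, 422.5 CPM with OSM and 160.9 CPM with TGFB, with the single ligands in the same order as for NFKB1. BCL3 was most like SERPINB4 (r = 0.98), RREB1 (r = 0.98) and SLC10A6 (r = 0.96). SERPINB4, a protease inhibitor, was at 2.89 CPM in PBS and 557.6 CPM with OSM, and its level is uncertain because it shares reads with its near-identical neighbour SERPINB3. NFKB2 was most like CDC42EP2 (r = 0.98), FAM177A1 and WSB2 (both r = 0.97), and RELA like RAB11FIP5, MLXIP and SLC12A4 (r = 0.98 to 0.99). RELB was most like IRF7 (r = 0.96), an interferon regulatory factor at 3.91 CPM in PBS, 3.01 CPM with EGF and 6.11 CPM with all 3 ligands, followed by TMEM132B and TYMP.

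NFKBIA was most like HLA-E (r = 0.99), an MHC class I gene at 370.4 CPM in PBS and 140.6 CPM with EGF, and then HOMEZ and OS9. The HLA-E value sums rows for copies on alternate loci. NFKBIE was most like TICAM1 (r = 0.97), the adaptor of TLR3, at 39.7 CPM in PBS and 67.8 CPM with EGF+TGFB, its highest group as for NFKBIE, and then DGKI and BPGM. NFKBIZ was most like SMIM1 (r = 0.98), C6orf132 and the pseudogene TTC3P1, whose reads can be confused with those of its parent gene. TNFAIP3 was most like GPX3 (r = 0.99), MAFF (r = 0.97) and GPR157 (r = 0.96). MAFF, a small basic leucine zipper factor, was at 38.3 CPM in PBS, 25.9 CPM with EGF, 22.2 CPM with OSM and 45.3 CPM with EGF+TGFB. BIRC3 had VN1R1 (r = 0.96), ANXA11 and ZNF506. Group means of VN1R1, ZNF506 and SMIM1 were at most 0.481, 0.854 and 0.727 CPM, so their patterns rest on few counts. Among the 10 members themselves, the most alike pairs were NFKB2 with RELA (r = 0.94) and NFKBIA with NFKBIZ (r = 0.93), and the least alike was NFKB1 with BIRC3 (r = -0.69).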

How the data were processed

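RNA-seq was read from the deposited table of estimated counts, 40487 rows by 27 libraries, held as whole numbers. The submitters' processing notes list Trim Galore 0.4.3, cutadapt 1.10, FastQC 0.11.5, kallisto 0.46.2, R 3.5.0 and the builds GRCh38.p5 and hg38, without roles, and per the labels' protocols libraries were made with a stranded kit from polyadenylated RNA. The rule that turned estimated counts into the authors' whole numbers is not given in the sources used here.

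Rows sharing a symbol were summed (36536 features). Rows without a symbol held 0.324% of counts. After filterByExpr by group, 15575 features were fitted over all 27 libraries with edgeR 4.0.16 in R 4.3.3 (TMM scaling with factors from 0.867 to 1.12, robust quasi-likelihood fit, 18 residual degrees of freedom, biological coefficient of variation 7.83%). Tests were edgeR's quasi-likelihood tests with Benjamini-Hochberg adjustment over all features, called at adjusted p under 0.05, for 20 comparisons: treatments against PBS, PBS against T0, a ligand on top of others, and departures from additivity. Fold changes used a prior count of 0.125. The SE is the log2 fold change divided by the square root of its F statistic. The same scripts were tested on simulated data. Replicate libraries differed by more than sampling noise (chi-square per degree of freedom 6.84 to 33.9). The labels mention no molecular identifiers, so counting intervals would understate the error.

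All members were tested in every comparison and are in the figures, while for some comparisons the text names only part of them. Of each pathway list, the called genes with the highest and the lowest change with each single ligand were named, and 3 genes most like each member. Other pathway genes and combinations named were chosen after their values were seen. The members and lists were chosen with earlier results of these data known. Replicate numbers are shared across groups: same-numbered libraries deviated together (every correlation over 0.1) in 2 of 36 group pairs. Of these, EGF+TGFB with PBS is a comparison made here, and there the replicate block changed no call of a member (10 called with and without it). The other pair was EGF with OSM, which both enter the EGF+OSM departure. Alternatives were RLE size factors, upper-quartile scaling, no filter, DESeq2 1.42.0, rows as deposited, the replicate block and leaving out each library. Coordinates are of GENCODE v44 on GRCh38 and may differ from the authors' annotation.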

Additional observations from a re-analysis of the deposited data

Results flagged for a closer look

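A ligand moved a gene one way alone and the other way on top of a second ligand in 5 cases. Each was tested as a departure from additivity in edgeR's fit, which tests that the changes differ and not that their signs do. RELB fell with EGF alone (log2 change -0.94) and rose when EGF was added to TGFB (0.41), a difference of 1.35 ± 0.14 (adjusted p = 2.17e-07). TNFAIP3 fell with EGF alone (-0.79) and rose with EGF on TGFB (0.71), a difference of 1.50 ± 0.20 (adjusted p = 8.87e-06). BIRC3 fell with TGFB alone (-0.78) and rose with TGFB on EGF (0.74), a difference of 1.52 ± 0.22 (adjusted p = 2.64e-05). NFKBIZ fell with OSM alone (-0.78) and rose with OSM on EGF (0.55), a difference of 1.33 ± 0.21 (adjusted p = 1.64e-05). The call of the rise on EGF was lost without EGF+OSM replicate 2 (0.39, adjusted p = 0.0671). NFKBIZ also fell with TGFB alone (-0.37) and rose with TGFB on OSM (0.46), a difference of 0.83 ± 0.20 (adjusted p = 0.00321). The call of the fall (adjusted p = 0.0354) was lost in 5 of 33 alternative fits, and that of the rise without OSM replicate 3.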

How the results depend on the processing

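Each of the 200 gene results was recomputed under 33 alternatives. A reversal was a change of sign where either fit called the result, and 0 occurred. Uncalled results that changed sign, such as NFKB2 with EGF against PBS (-0.10 to 0.07), counted as kept. The calls were kept or missed as before in 196 with DESeq2, 198 with RLE size factors, 198 with rows as deposited, 193 with upper-quartile scaling, 193 without the filter and 190 with the replicate block, and in 5296 of 5400 results with a library left out. The count of members changed by OSM on top of EGF, 5, was 3 without the filter and 3 to 5 with a library left out. Fewer features were removed and more p-values adjusted without the filter. With upper-quartile scaling the median of all features was -0.14, -0.13 and -0.14 with EGF, EGF+OSM and EGF+TGFB against PBS, beside -0.07, -0.05 and -0.04 with TMM. The replicate block changed 10 calls, all gains, and for EGF on top of OSM+TGFB raised the count of members from 4 to 6. By the rule used, the EGF+OSM departure also holds paired groups, EGF and OSM, and the EGF+TGFB departure holds PBS and EGF+TGFB. With the block, the members called went from 5 to 7 for the EGF+OSM departure and stayed at 8 for the EGF+TGFB departure. The other comparisons share only a number by that rule. However, for 26 of 27 libraries the mean correlation with libraries of other groups was highest for their own number. That is a hint from the data and not the design (same-number correlations of -0.0265 to 0.178). With the block NFKBIA was called with TGFB (-0.17, adjusted p = 0.00812), and 5 receptors rose and 2 fell with TGFB. With upper-quartile scaling EGF on top of OSM also lowered NFKB1 (-0.15, 0.0228) and RELA (-0.14, 0.0263), and the EGF+OSM departure of BCL3 was called (0.53, 0.043), as with DESeq2 (0.51, 0.0311). The lowest member count was 163, for NFKBIE, and the part of counting error in its spread was not tested. Of the pathway list counts, 1465 of 1512 with a library left out stayed within 1.5 times, as did 51 to 54 of 56 under each of the other 6 settings. Of the named pathway genes, 1012 of 1026 such results kept their call, and under the other settings RIPK1 with TGFB was the 1 that did not. With rows as deposited, TNF with TGFB gave no value.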
